A study of Mus musculus with 240 samples.

Results

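The gonadal fat pads of 10-week-old male BTBR mice were compared between 5 mice carrying the ob mutation of Lep and 5 lean mice, which are 10 of the 240 arrays of the series and 10 of the 40 arrays of fat. The arrays of each group were taken by their labels, which name the tissue, the strain, the ob or lean state, the age and the number of each mouse. The comparison itself was chosen with earlier results of these data known. Each array carried the RNA of 1 mouse against a pool of 20 mice of its strain and tissue, so that a value says how far a mouse lay from the pool and gives no level of its own. All mice of the series came from in-house colonies of the inbred strains BTBR and B6 (C57BL/6), the lean mice carry no transgene or drug treatment in the labels, and their genotype at Lep (wild type or heterozygous) is not stated there. For the comparison with the other strain, 5 ob and 5 lean B6 mice of 10 weeks were used, and for that with the younger age, 5 ob and 5 lean BTBR mice of 4 weeks.

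White fat stores triglyceride in adipocytes and secretes hormones such as leptin, the satiety hormone encoded by Lep. Mice with the ob mutation make no working leptin, overeat and become obese from weaning on, and on the BTBR background they are known to go on to severe diabetes while B6 ob mice largely do not. In obese fat of mice, macrophages are known to gather around dying adipocytes, take up their lipid and carry Itgax, Trem2 and Gpnmb, and the fat cells themselves are known to lose insulin response and fat synthesis.

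Values are log2 ratios to the pool, and differences are ob minus lean on that scale with the standard error of the fit after ± (5 mice per group). The words rose, fell and changed are kept for genes with an adjusted p under 0.05 in limma over 19896 genes, and the number of arrays limits the precision. Mice are always listed in the order 26, 30, 31, 32 and 33 for lean and 4, 5, 8, 9 and 10 for ob. Each mouse is a separate animal by its number, and the labels name no litter, cage or array batch.

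The labels do not settle whether the ratio runs from mouse to pool or the other way, and some arrays correlated below -0.3 across genes, down to -0.62 between a lean and an ob array and to -0.43 between lean mice 33 and 26. Directions given here are therefore likely ones, with mouse over pool taken as positive. Their basis is that over the 20 BTBR fat arrays the 200 most variable probes had a mean linear ratio of 0.894 at the median, close to the value of 1 that a pool of these mice would give, against 6.88 with the sign turned. That basis assumes that the pool held these mice, since for this tissue alone the labels call it a BTBRob control pool, and over the 10 ob arrays by themselves the ratio was 0.15. Were the ratio to run the other way, every sign below would be opposite, with sizes, tests and totals as they stand and rises counted as falls. In the chosen sign Lep and macrophage genes are higher in ob fat, as is known of obese mouse fat.

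Several arrays stood apart before any comparison. The mean of 24 testis transcripts was -3.42, -2.60, 0.30, 0.79 and 2.60 in the lean mice and between -3.11 and -1.62 in the ob mice. Lean mouse 33 was thus the highest and lean mice 31 and 32 also lay above the pool, while lean mouse 30 lay within the range of the ob mice and lean mouse 26 below it. Testis transcripts were between -0.23 and 0.23 in the other 5 tissues of the 10-week lean BTBR mice. Tnp1, the transition protein that packs sperm chromatin, read -5.45, -3.76, -0.98, 0.95 and 2.27 in the lean mice and -5.35, -2.98, -5.22, -4.76 and -5.55 in the ob mice. The epididymis list of 12 genes was at 1.77 in lean mouse 32 and between -1.85 and -1.68 in the other lean mice, with its sperm-coating peroxidase Gpx5 at 3.56 in that mouse. The gonadal pad lies against both organs. In lean mouse 26 the antigen presentation list (1.24), the interferon list (1.07) and the T and B lymphocyte list (0.86) were higher than in each other lean mouse. For the lists that the text leads with, counts are therefore also given without lean mouse 33 and, where they moved further, without lean mice 31, 32 and 33.

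**Figure D1:**
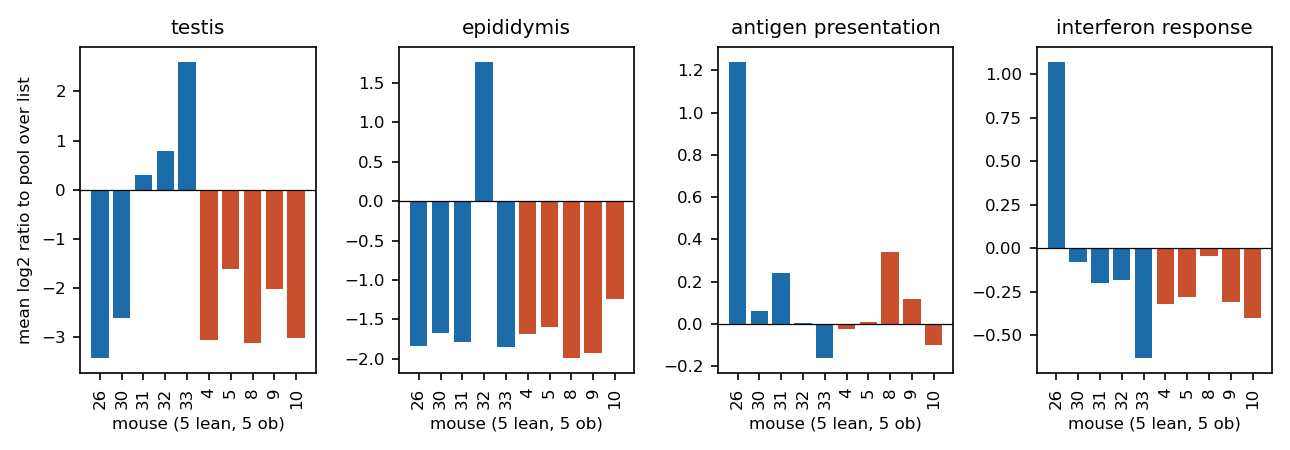
Mean log2 ratio to the pool over the members of 4 gene lists (vertical axis, its own scale in each panel) for each 10-week BTBR mouse, lean mice in blue and ob mice in red. Testis transcripts were above the pool in lean mice 31, 32 and 33, epididymis transcripts in lean mouse 32, and antigen presentation and interferon transcripts were highest in lean mouse 26.

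At 10 weeks 8760 of 19896 genes changed (44.0%), 4511 rising (22.7% of all genes) and 4249 falling (21.4%), with a median difference of 0.021 over all genes. In 4870 genes (24.5%) the ob and lean values did not overlap, with 2894 higher in each ob mouse (14.5%) and 1976 lower (9.93%). A change of 2-fold or more was reached by 698 genes that rose and 991 that fell. Leaving out the arrays that held testis transcripts lowered both totals, and among the 2-fold changes it cost falls far more than rises. Without lean mouse 33, 3838 genes rose (19.3%) and 3397 fell (17.1%), and of the 2-fold changes 685 of the 698 rises but 388 of the 991 falls were still called. Without lean mice 31, 32 and 33, 2669 rose (13.4%) and 3113 fell (15.6%), and 666 rises and 220 falls of that size were still called. How much of the loss came from the smaller number of mice was not tested. Of the 24 measured testis genes 16 fell with all mice (median -2.30), 1 fell and 1 rose without lean mouse 33, and without the 3 mice 1 rose and the median was 0.28.

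The ob mutation lies within Lep. Lep transcript read -1.26, -1.45, -1.99, -1.66 and -1.36 in the lean mice and 0.85, 1.0, 1.0, 0.58 and 0.11 in the ob mice, so that all ob mice lay above all lean mice. It rose by 2.25 ± 0.23 (adjusted p = 1.1e-09), a 4.76-fold difference. The array measures the transcript and not the hormone, and the mutant transcript is still made, so it does not check the genotype.

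Transcripts of the fat cell itself mostly fell. Of 22 measured adipocyte genes 15 fell and 2 rose, with a median of -0.49, against 21.4% and 22.7% of all genes. Without lean mouse 33, 14 fell and 1 rose, and without the 3 mice 13 and 1. The mean of the list lay between -0.18 and 0.14 in the lean mice and between -1.14 and -0.55 in the ob mice, with ob mouse 10 the lowest. In whole fat, fewer adipocytes and less of a transcript in each cannot be told apart, and since a ratio to a pool of fat gives no level, the tissue itself could not be checked by its markers. The deepest fall of the list was in Cfd, the complement factor adipsin that fat secretes: it read 0.91, 0.72, 0.86, 0.36 and 0.44 in the lean mice and -3.45, -3.54, -3.66, -3.59 and -4.05 in the ob mice. The groups were far apart, and the difference was -4.31 ± 0.24 (adjusted p = 6.8e-16). Retn, the adipocyte hormone resistin, read 0.24, 0.13, 0.18, -0.01 and -0.089 in the lean mice and -1.87, -1.86, -2.05, -2.59 and -2.49 in the ob mice. No values overlapped, and it fell by 2.26 ± 0.12. Adipoq, the insulin-sensitising hormone adiponectin, read 0.61, 0.71, 0.44, 0.32 and 0.073 in the lean mice and -0.43, -0.34, -0.38, -0.64 and -1.10 in the ob mice. Again the groups stayed apart (difference -1.01 ± 0.13, adjusted p = 2e-07), with ob mouse 10 lowest. The carbonic anhydrase Car3 (-2.68 ± 0.28), Pck1 of glyceroneogenesis (-2.19 ± 0.23), the lipid droplet coat Plin1 (-0.53 ± 0.11) and the adipogenic regulators Cebpa (-0.71 ± 0.13) and Pparg (-0.37 ± 0.11) fell as well. Lep and Mrap (0.30 ± 0.11) were the members that rose, Mrap not without lean mouse 33 (adjusted p = 0.085).

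Secreted products went both ways, as did all genes. Of 28 adipokine and secreted genes 9 rose and 9 fell (32.1% each), beside 22.7% and 21.4% of all genes. The list median was 0.10, and the same counts held without lean mouse 33. Agt, the precursor of angiotensin, fell by 2.56 ± 0.18, the vascular peptide Apln by 1.83 ± 0.29 and the retinol carrier Rbp4 by 1.80 ± 0.18. Metrnl (1.87 ± 0.15), Gdf3 of the TGF-beta family (1.84 ± 0.11), the acute phase protein Saa3 (1.65 ± 0.40) and the growth factor Fgf1 (1.21 ± 0.17) rose.

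**Figure D2:**
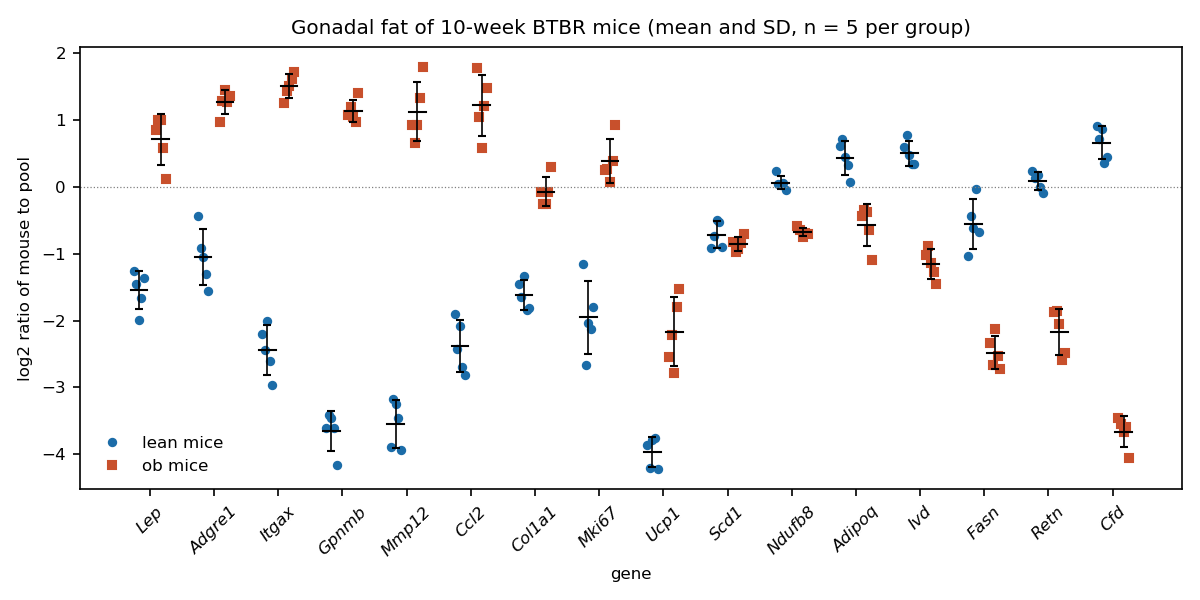
Log2 ratio to the pool of 16 genes (horizontal axis) in each of 5 lean mice (blue circles) and 5 ob mice (red squares) of 10 weeks, with the mean and SD in black. The groups do not overlap for any of the genes shown except Scd1, whose values lie between -0.98 and -0.49 in all 10 mice.

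Macrophage transcripts rose in a body. Of 25 macrophage genes 22 rose and 1 fell (median 1.80), 21 and 0 without lean mouse 33 and 19 and 0 without the 3. In 19 of 25 the groups did not overlap, beside 24.5% of all genes. The mean of the list lay between -0.99 and -0.11 in the lean mice, highest in lean mouse 26, and between 0.65 and 1.05 in the ob mice. Adgre1, the surface receptor by which mouse macrophages are commonly stained, read -0.44, -0.91, -1.05, -1.31 and -1.55 in the lean mice and 0.97, 1.28, 1.45, 1.27 and 1.36 in the ob mice. Every ob mouse lay above every lean mouse, with a mean difference of 2.32 ± 0.19 (adjusted p = 7.4e-12). The scavenger protein Cd68 (2.67 ± 0.14), the cathepsin Ctss (2.89 ± 0.22), the integrin chain Itgb2 (2.83 ± 0.19) and the pore protein Mpeg1 (2.80 ± 0.22) moved the furthest. The complement genes C1qa (0.52 ± 0.19), C1qb (0.75 ± 0.16) and C1qc (0.67 ± 0.17) moved less, and C1qa was not called without lean mouse 33 (adjusted p = 0.1). Aif1 was the member that fell (-1.19 ± 0.36, adjusted p = 0.0075). It read 2.27 in lean mouse 33 and missed the threshold without that mouse (adjusted p = 0.054). Itgam (-0.40 ± 0.28) and Clec4n (0.084 ± 0.24) did not pass.

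Genes of lipid-laden macrophages and of lysosomes rose further, and Gpnmb, Mmp12, Atp6v0d2 and Itgax were among the 12 largest rises of genes whose groups did not overlap. Of 27 such genes 26 rose and 1 fell (median 1.96), also without lean mouse 33, and 25 and 1 without the 3. Gpnmb, a glycoprotein of lysosome-rich macrophages, read -3.61, -3.41, -3.45, -3.60 and -4.16 in the lean mice and 1.07, 1.19, 1.04, 0.97 and 1.40 in the ob mice. The gap between the groups was wider than the spread within either, and the difference was 4.78 ± 0.22 (adjusted p = 4.6e-18), or 27.5-fold. Mmp12, the macrophage elastase, read -3.89, -3.17, -3.24, -3.46 and -3.94 in the lean mice and 0.92, 0.66, 0.92, 1.33 and 1.79 in the ob mice. It rose by 4.66 ± 0.21 (adjusted p = 4.6e-18) with no overlap. Itgax, the integrin CD11c of the inflammatory macrophages of fat, read -2.20, -2.44, -2.0, -2.60 and -2.96 in the lean mice and 1.25, 1.44, 1.51, 1.61 and 1.72 in the ob mice. All ob mice lay above all lean mice, and the rise was 3.94 ± 0.17 (adjusted p = 3.1e-18). The proton pump subunit Atp6v0d2 (4.31 ± 0.28), osteopontin Spp1 (3.78 ± 0.59), the cathepsin Ctsk (3.09 ± 0.16), the acid lipase Lipa that empties lysosomes of lipid (2.42 ± 0.14), the lipid receptor Trem2 (1.85 ± 0.18) and the droplet coat Plin2 (1.82 ± 0.21) also rose. Acp5, the tartrate-resistant phosphatase, was the member that fell (-0.93 ± 0.10).

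Promoters of these genes were read for the purine-rich motif of PU.1, the myeloid transcription factor encoded by Spi1, whose own transcript rose by 0.81 ± 0.07 (adjusted p = 1.6e-11). The letters searched were GAGGAAGT on either strand within 300 bases, from 250 before to 50 after the gene start, in RefSeq sequences of the reference mouse genome GRCm38.p6, which is that of C57BL/6J and not BTBR. Of the 25 macrophage genes 16 had an entry and 3 held the motif, and of the 27 lipid-laden and lysosome genes 21 had an entry and 2 held it, against 997 of 27025 genes with an entry (3.69%), or 1052 of 32851 promoters (3.20%). Among these promoters were those of Mmp12 and Spp1, from the lipid-laden macrophage list, and of Ctss, Cd53 and C1qc from the general macrophage list. They are shown from 250 bases before to 30 after the start, 5′ to 3′ on the strand of the gene, with the motif in capitals (ACTTCCTC is its reverse complement); a match is a run of letters and not a measured binding site.
Ctss: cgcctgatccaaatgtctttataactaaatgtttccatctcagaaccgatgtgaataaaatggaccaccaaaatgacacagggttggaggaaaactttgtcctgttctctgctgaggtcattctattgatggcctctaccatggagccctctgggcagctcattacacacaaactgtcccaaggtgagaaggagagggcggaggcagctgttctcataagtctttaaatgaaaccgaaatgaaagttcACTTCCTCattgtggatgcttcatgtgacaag
Cd53: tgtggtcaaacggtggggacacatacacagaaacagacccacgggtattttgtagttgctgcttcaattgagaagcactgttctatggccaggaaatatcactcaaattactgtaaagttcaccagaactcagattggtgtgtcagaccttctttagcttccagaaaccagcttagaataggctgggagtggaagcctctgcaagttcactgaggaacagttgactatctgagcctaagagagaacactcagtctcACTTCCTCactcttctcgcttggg
C1qc: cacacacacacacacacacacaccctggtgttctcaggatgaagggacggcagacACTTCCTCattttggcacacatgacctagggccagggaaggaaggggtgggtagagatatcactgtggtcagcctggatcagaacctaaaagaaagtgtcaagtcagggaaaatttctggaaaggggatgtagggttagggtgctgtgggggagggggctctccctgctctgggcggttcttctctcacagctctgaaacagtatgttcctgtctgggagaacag
Spp1: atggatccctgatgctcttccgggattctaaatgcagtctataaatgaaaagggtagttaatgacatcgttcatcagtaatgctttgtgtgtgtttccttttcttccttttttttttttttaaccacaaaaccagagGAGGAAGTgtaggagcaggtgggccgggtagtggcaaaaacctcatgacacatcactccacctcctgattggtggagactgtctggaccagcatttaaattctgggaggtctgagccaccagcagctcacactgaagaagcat
Mmp12: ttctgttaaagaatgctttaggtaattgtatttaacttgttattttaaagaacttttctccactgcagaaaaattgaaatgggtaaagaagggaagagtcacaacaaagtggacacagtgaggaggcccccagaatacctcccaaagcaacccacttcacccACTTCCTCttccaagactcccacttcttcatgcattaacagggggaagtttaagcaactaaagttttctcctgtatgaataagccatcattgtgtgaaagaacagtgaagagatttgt
These lie at chr3:95526536-95526815 (plus strand), chr3:106790120-106790399 (minus), chr4:136892885-136893164 (minus), chr5:104434861-104435140 (plus) and chr9:7344147-7344426 (plus). Relative to the gene start, the motif begins at -2 in Ctss, -195 in C1qc, -113 in Spp1, -88 in Mmp12 and 7 in Cd53. The genes with the motif did not move alike: Mmp12 rose by 4.66, Spp1 by 3.78, Ctss by 2.89, Cd53, a leukocyte tetraspanin, by 2.31 and C1qc by 0.67. The DR1 motif of PPAR-gamma, a repeat of AGGTCA after a gap of 1 base on either strand, was not among the letters of these windows in any of the 14 adipocyte genes with an entry, and it is rare at 13 of 32851 promoters (0.0396%).

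Resident and alternatively activated macrophage genes moved less uniformly. Of 17, 9 rose and 4 fell (median 0.54), 8 and 4 without lean mouse 33 and 4 and 4 without the 3. Vsig4, a complement receptor (1.83 ± 0.23), Chil3, a chitinase-like secreted protein (1.60 ± 0.22), and the mannose receptor Mrc1 (0.88 ± 0.17) rose, and Cd209f (-1.05 ± 0.24), Timd4 of long-lived resident cells (-1.0 ± 0.24) and Retnla (-0.95 ± 0.26) fell. Arg1 passed with all mice (1.42 ± 0.57, adjusted p = 0.043) and lost its call in most fits that left 1 mouse out, the 2 without lean mice 31 or 32 excepted.

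Some chemokines rose, while Tnf, Il1b and Il6 did not pass. Of 32 cytokine and chemokine genes 13 rose, 1 fell and 18 were not called (median 0.67); 11 rose and 1 fell without lean mouse 33, and 7 and 2 without the 3. Ccl2, which draws monocytes into tissue, read -1.90, -2.43, -2.08, -2.69 and -2.81 in the lean mice and 1.78, 1.04, 0.58, 1.21 and 1.48 in the ob mice. The groups did not overlap and the rise was 3.60 ± 0.41 (adjusted p = 8.6e-09). Il1rn, the antagonist of the interleukin 1 receptor, made the largest rise of the genes named here (4.91 ± 0.35, adjusted p = 1.7e-13), and its values were -3.53, -3.28, -2.83, -3.74 and -3.98 in the lean mice and 1.42, 1.01, 0.86, 1.59 and 2.30 in the ob mice. Ccl3 (3.01 ± 0.29), Ccl7 (2.74 ± 0.48) and Cxcl2 (1.98 ± 0.51), further chemokines, rose too. Tnf (-0.063 ± 0.063, adjusted p = 0.43), Il1b (-0.22 ± 0.59, adjusted p = 0.78) and Il6 (1.38 ± 0.80, adjusted p = 0.16) did not pass, and Il1b was at 1.69 in ob mouse 9 against -1.33 to -0.48 in the other ob mice. Nos2 was the member that fell (-0.23 ± 0.088). Ptgs2, the inducible prostaglandin synthase, read -1.89, -1.81, -2.45, -2.69 and -2.55 in the lean mice and -1.56, -1.42, -1.43, 1.02 and 3.74 in the ob mice. The rise of 2.35 ± 0.91 (adjusted p = 0.037) was set mainly by ob mice 9 and 10, and it missed the threshold without either of them (adjusted p = 0.081 and 0.19) and without lean mouse 31, 32 or 33 (0.061, 0.069 and 0.068).

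Cell division transcripts were higher in ob fat. Of 27 DNA replication and G1/S genes 22 rose and 0 fell (median 0.63), also without lean mouse 33. In 17 of the 27 the groups did not overlap, beside 24.5% of all genes. The licensing factor Cdt1 (2.02 ± 0.15), the helicase subunits Mcm3 (1.14 ± 0.17) and Mcm6 (1.13 ± 0.14) and the sliding clamp Pcna (1.09 ± 0.10) were members. Of 28 mitosis and G2/M genes 17 rose and 0 fell (median 0.98), and 25 rose without lean mouse 33 (median 1.25). With all mice the groups did not overlap in 7 of the 28, near the 24.5% of all genes. The mean of that list was 0.32 in lean mouse 33, in which testis transcripts are highest, and between -1.40 and -0.88 in the other lean mice, against 0.0055 to 0.55 in the ob mice. Mki67, the proliferation antigen Ki-67, read -1.15, -2.66, -2.03, -2.13 and -1.79 in the lean mice and 0.25, 0.26, 0.071, 0.39 and 0.93 in the ob mice. It rose by 2.33 ± 0.35 (adjusted p = 1.9e-06) with no overlap, as did cyclin A2, Ccna2 (2.16 ± 0.32), and the mitotic kinase Aurkb (1.90 ± 0.28). Which cells divided was not tested: these are whole-tissue values, and the macrophage list rose beside them.

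Matrix genes rose, Timp1 and Lox the furthest of those named. Of 35 extracellular matrix genes 23 rose and 3 fell (median 0.49), 21 and 3 without lean mouse 33 and 15 and 4 without the 3. Col1a1, a chain of collagen I, read -1.45, -1.64, -1.33, -1.84 and -1.81 in the lean mice and -0.077, -0.25, -0.25, -0.08 and 0.29 in the ob mice. All ob mice lay above all lean mice (1.54 ± 0.13, adjusted p = 9.9e-12). The metalloproteinase inhibitor Timp1 (2.77 ± 0.33), the lysyl oxidase Lox (1.96 ± 0.14), lumican Lum (1.31 ± 0.14) and the collagen VI chains Col6a1 (1.16 ± 0.19), Col6a2 (0.86 ± 0.10) and Col6a3 (0.47 ± 0.12) rose. The basement membrane genes Col4a1 (0.12 ± 0.12) and Col4a2 (0.053 ± 0.088) did not pass, and Col15a1 (-0.66 ± 0.11), Lama4 (-0.61 ± 0.084) and Col5a3 (-0.55 ± 0.12) fell. Among 19 fibroblast and adipocyte progenitor genes 2 rose and 8 fell (median -0.064), also without lean mouse 33, and 0 and 8 without the 3, with Pdgfra (0.49 ± 0.11) higher and the preadipocyte factor Dlk1 (-1.5 ± 0.24) lower. Gsn, gelsolin, passed (-0.74 ± 0.30, adjusted p = 0.047) through lean mouse 31, at 2.61 against 0.31 to 0.58 in the other lean mice, and missed the threshold without it (adjusted p = 0.32) or without any 1 of the ob mice (0.065 to 0.078). Of 16 genes tied to the growth of the fat mass, imprinted genes among them, 5 rose and 4 fell, 3 and 5 without lean mouse 33, and 1 and 5 without the 3. With all mice these are 31.2% and 25% of the list, beside 22.7% and 21.4% of all genes, and the list median was 0.013. The imprinted genes Nnat (-1.63 ± 0.44) and Igf2 (-1.21 ± 0.11) fell, and Sfrp5, a Wnt antagonist, rose (0.77 ± 0.12). Mest, whose transcript is known to track fat expansion, was not called (0.48 ± 0.21, adjusted p = 0.059) and passed without ob mouse 10 (0.68, adjusted p = 0.0056).

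Part of the fat synthesis genes fell. Of 26 lipogenesis and triglyceride synthesis genes 11 fell and 1 rose (median -0.43), 10 and 0 without lean mouse 33 and 7 and 0 without the 3. After quantile normalization 5 of the 26 fell, beside 4145 of all 19896 genes, so that the list was then close to the share of all genes. Fasn, fatty acid synthase, read -1.04, -0.43, -0.62, -0.028 and -0.67 in the lean mice and -2.34, -2.67, -2.13, -2.53 and -2.72 in the ob mice. The groups did not overlap and it fell by 1.92 ± 0.28 (adjusted p = 9.1e-07), a 3.79-fold difference. The lipogenic regulator Thrsp (-1.52 ± 0.20), the acyltransferase Gpam that starts triglyceride assembly (-0.88 ± 0.16), and the regulators Srebf1 (-0.86 ± 0.12) and Mlxipl (-0.67 ± 0.16) fell. Acly, which makes cytosolic acetyl-CoA, fell with all mice (-0.99 ± 0.35, adjusted p = 0.023) and missed the threshold without lean mouse 32 (adjusted p = 0.071) or ob mouse 8 (0.051), and without lean mice 31, 32 and 33 (0.26). Scd1, the main fatty acid desaturase, read -0.91, -0.74, -0.49, -0.53 and -0.90 in the lean mice and -0.83, -0.98, -0.93, -0.84 and -0.70 in the ob mice. Its groups overlapped and it was not called (-0.14 ± 0.26, adjusted p = 0.69). Of 18 cholesterol synthesis genes 6 rose and 1 fell (median 0.25). These counts were 5 and 1 without lean mouse 33 and 4 and 1 without the 3. Dhcr7 (1.15 ± 0.20) and Lss (1.06 ± 0.20) were among the risers, and Fdft1, squalene synthase, was the member that fell (-0.75 ± 0.14).

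Of 16 genes of lipolysis and its control 10 fell and 1 rose (median -0.44), 10 and 0 without lean mouse 33. The lipase inhibitor G0s2 (-1.17 ± 0.23), the droplet protein Cidea (-1.81 ± 0.45), and the antilipolytic receptor Hcar2 (-0.81 ± 0.23) fell, so that inhibitors of lipolysis stood among the genes that fell. Lipe, hormone-sensitive lipase, read -0.19, -0.066, 0.26, 0.26 and 0.88 in the lean mice and -0.28, -0.17, -0.30, -0.42 and -0.37 in the ob mice. It fell by 0.53 ± 0.11 and did not pass without lean mice 31, 32 and 33 (-0.18, adjusted p = 0.15). Pnpla2, the first lipase of the pathway, was not called (-0.28 ± 0.13, adjusted p = 0.084) and passed without lean mouse 33 (-0.35).

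Most oxidative phosphorylation transcripts fell. Of 47 genes 35 fell, 0 rose and 12 were not called (median -0.35, from -0.74 to 0.092). Without lean mouse 33, 36 fell, and 28 without the 3. In 33 of the 47 the groups did not overlap, beside 24.5% of all genes. The mean of the list lay between -0.26 and -0.11 in the lean mice, lowest in lean mouse 33, and between -0.53 and -0.46 in the ob mice. By complex, 17 of 22 genes of complex I fell, 4 of 4 of complex II, 4 of 6 of complex III, 5 of 6 of complex IV and 5 of 8 of the ATP synthase. Ndufb8, an accessory subunit of complex I, read 0.23, 0.036, 0.033, 0.061 and -0.047 in the lean mice and -0.59, -0.64, -0.75, -0.69 and -0.71 in the ob mice. No ob mouse reached a lean one (-0.74 ± 0.08, adjusted p = 2.9e-09). Cyc1 of complex III (-0.65 ± 0.10), Cox8a of complex IV (-0.63 ± 0.068), and Sdhb of complex II (-0.49 ± 0.083) were further members. Of 22 genes of the tricarboxylic acid cycle and its regulators 13 fell and 3 rose (median -0.35), 12 and 3 without lean mouse 33 and 9 and 2 without the 3, with pyruvate carboxylase Pcx (-1.20 ± 0.15), the coactivator Ppargc1a (-0.55 ± 0.10) and Cs, citrate synthase (-0.50 ± 0.082), lower and Dlst (0.52 ± 0.10) higher.

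Breakdown of branched-chain amino acids was the metabolic list with the largest median fall. Of 21 genes 18 fell and 0 rose (median -0.66), 19 without lean mouse 33 and 19 without the 3. Ivd, which acts in leucine breakdown, read 0.59, 0.78, 0.47, 0.34 and 0.34 in the lean mice and -1.02, -0.88, -1.14, -1.27 and -1.45 in the ob mice. The groups did not overlap (-1.66 ± 0.12, adjusted p = 5.2e-13). The fall reached the first step, the aminotransferase Bcat2 (-1.04 ± 0.11), the dehydrogenase subunits Bckdha (-0.88 ± 0.10), Bckdhb (-0.49 ± 0.089) and Dbt (-0.53 ± 0.10), and the propionate enzymes Pccb (-1.07 ± 0.09) and Pcca (-0.66 ± 0.10). Fatty acid oxidation was mixed: of 25 genes 4 rose and 8 fell (median -0.13), 1 and 6 without lean mice 31, 32 and 33, with the regulator Ppara (-0.79 ± 0.15), Eci1 (-0.79 ± 0.093) and Hadh (-0.59 ± 0.086) lower and Hadhb (0.47 ± 0.13) and Acadm (0.40 ± 0.13) higher. Of 26 antioxidant and glutathione genes 8 rose (30.8%) and 9 fell (34.6%), beside 22.7% and 21.4% of all genes (median 0.048). Haem oxygenase Hmox1 (2.14 ± 0.21), Srxn1 (1.22 ± 0.18) and the thioredoxin reductase Txnrd1 (0.77 ± 0.10) rose, while the glutathione transferases Gsta4 (-1.61 ± 0.15) and Gsta3 (-1.54 ± 0.24) and the secreted peroxidase Gpx3 (-1.39 ± 0.19) fell; the Gsta genes are near copies whose probes may read each other's transcripts.

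In insulin signalling and glucose uptake, 10 of 23 genes fell and 5 rose (median -0.076), 11 and 3 without lean mouse 33 and 10 and 2 without the 3. Slc2a4, the insulin-responsive glucose transporter GLUT4, read 0.31, 0.31, 0.17, 0.058 and -0.12 in the lean mice and -0.73, -0.56, -1.01, -0.98 and -1.11 in the ob mice. The groups did not overlap (-1.02 ± 0.18, adjusted p = 1.9e-05). The kinase Akt2 (-0.52 ± 0.10), the adaptor Irs2 (-0.49 ± 0.19), the transcription factor Foxo1 (-1.03 ± 0.15) and Tbc1d4, which controls GLUT4 traffic (-0.38 ± 0.073), fell. The phosphatase Ptpn1 (0.56 ± 0.11) and the basal glucose transporter Slc2a1 (0.58 ± 0.14) rose, Slc2a1 with overlap. The insulin receptor Insr was not called with all mice (-0.13 ± 0.071, adjusted p = 0.15) and passed without lean mouse 33 (-0.19, adjusted p = 0.033); its 2 probes differed in sign, at -0.48 and 0.23. In the brown and beige fat list 3 of 19 genes rose (15.8%) and 4 fell (21.1%), no more than the 22.7% and 21.4% of all genes (median 0.057). Ucp1, the uncoupling protein of brown fat, read -3.86, -4.20, -3.79, -3.76 and -4.22 in the lean mice and -2.54, -2.21, -2.78, -1.79 and -1.53 in the ob mice. The groups did not overlap. The rise of 1.80 ± 0.71 (adjusted p = 0.039) missed the threshold in 7 of the 10 fits that left 1 mouse out (adjusted p = 0.054 to 0.086). Tmem26 (1.61 ± 0.16) and the proton channel Otop1 (1.46 ± 0.26) rose, and Cidea and Ppargc1a, named above, fell.

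Endothelial transcripts fell. Of 14 endothelial genes 10 fell and 0 rose (median -0.46), 12 without lean mouse 33, and the list mean was lowest in ob mouse 10, at -0.65 against -0.38 to -0.27 in the other ob mice. Rgcc (-1.04 ± 0.12), the guidance receptor Robo4 (-0.77 ± 0.13) and the VEGF receptors Kdr (-0.73 ± 0.14) and Flt1 (-0.71 ± 0.089) led them. Of 20 hypoxia and angiogenesis genes 10 rose and 2 fell (median 0.21), 8 and 3 without lean mouse 33 and 7 and 3 without the 3. The 2 that fell with all mice are ligands of endothelial receptors, Vegfa (-1.77 ± 0.14, adjusted p = 1.3e-12) and Angpt1 (-2.14 ± 0.15, adjusted p = 2.6e-13), while the carbonic anhydrase Car9 (1.36 ± 0.11), Hmox1 and Angpt2, which opposes Angpt1 (0.86 ± 0.14), rose. Vegfa values were 0.59, 0.34, 0.23, 0.0023 and -0.051 in the lean mice and -1.87, -1.39, -1.32, -1.34 and -1.84 in the ob mice, without overlap. Of 23 ER stress genes 10 rose and 3 fell (median 0.12), 9 and 4 without lean mouse 33 and 7 and 3 without the 3, Atf3 (1.85 ± 0.42) and Dnajb9 (1.26 ± 0.13) the furthest up and Asns, asparagine synthetase, the furthest down (-1.81 ± 0.12).

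The remaining lists were of other cell types and of responses. Of 22 T and B lymphocyte genes 2 rose and 1 fell (median -0.016), and 1 and 1 without lean mouse 33. Of 18 antigen presentation genes 0 rose and 2 fell, 0 and 5 without lean mouse 33 and 0 and 6 without the 3. Of 20 interferon response genes 2 rose and 2 fell, 1 and 8 without lean mouse 33 and 0 and 14 without the 3. Those last counts weigh lean mouse 26 more, in which both lists were high: Psmb9, an immunoproteasome subunit, was at 1.97 there, and its fall (-0.69 ± 0.25, adjusted p = 0.027) was lost without that mouse (adjusted p = 0.17) or ob mouse 10 (0.065). Of 9 mast cell genes 5 rose and 1 fell (median 0.48), also without lean mouse 33, and 4 and 1 without the 3, among them the IgE receptor chain Fcer1a (1.23 ± 0.24) and the proteases Cpa3 (1.03 ± 0.20) and Cma1 (0.81 ± 0.17), while Kit fell (-0.73 ± 0.13). The mast cell list mean was highest in ob mouse 8 at 0.81 and was -0.12 in ob mouse 5, within the lean range of -0.21 to 0.072. Of 14 skeletal muscle genes 3 rose (21.4%) and 2 fell (14.3%), beside 22.7% and 21.4% of all genes. Smooth muscle and pericyte genes (1 of 11 rose and 1 fell) and mesothelial genes (2 of 12 rose and 0 fell) gave few calls. The mesothelial counts were 0 and 0 without lean mouse 33. Of 15 acinar pancreas genes 2 rose, the elastase Cela1 by 1.99 ± 0.15 among them, and 1 fell. Erythrocyte genes (0 of 4) and epididymis genes (0 of 12) gave no call in limma, and 0 of either list had an unadjusted p under 0.05. Glucocorticoid response genes (0 of 18 rose and 1 fell) and circadian clock genes (1 of 15 rose and 0 fell) gave few as well.

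Other large changes lay outside these groups. Among the 12 largest rises of genes whose groups did not overlap were Tph2, a tryptophan hydroxylase of serotonin synthesis best known from neurons (4.54 ± 0.31, adjusted p = 7e-14), the Wnt inhibitor Wif1 (4.77 ± 0.55, adjusted p = 9.8e-09), the ubiquitin-like modifier Ubd (4.44 ± 0.32), the serpin Serpinb9b (4.44 ± 0.44), the sheddase Adam8 (4.10 ± 0.19), the interleukin 7 receptor Il7r (3.86 ± 0.24) and the fatty acid omega-hydroxylase Cyp4a10 (4.01 ± 0.72). Tph2 read -4.0, -2.86, -3.68, -3.39 and -3.75 in the lean mice and 1.34, 1.07, 0.39, 1.33 and 0.90 in the ob mice, and Wif1 read -3.25, -2.56, -3.44, -2.89 and -3.37 in the lean mice and 1.81, 1.98, 1.43, 1.69 and 1.46 in the ob mice. Both were separated by more than the spread within either group. Serpinb9b was between -0.0017 and 0.13 in ob mice 4, 5 and 8 and at 1.79 and 3.10 in ob mice 9 and 10, the mice in which Ptgs2 was also highest.

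Among the 12 largest falls of genes whose groups did not overlap were the triglyceride enzyme Mogat1 (-3.10 ± 0.15, adjusted p = 2.8e-17), the cytochrome Cyp2e1 (-3.40 ± 0.25, adjusted p = 3e-13), the carboxylesterases Ces3 (-2.85 ± 0.21) and Ces1f (-2.70 ± 0.22) and Rprml (-4.12 ± 0.55). The carboxylesterases have near copies that may share probes. Mup2, a major urinary protein of a family of near-identical genes, read -2.21, 0.0083, 1.97, 2.54 and 0.21 in the lean mice and -4.65, -4.14, -4.82, -4.17 and -4.81 in the ob mice. It ran from -2.21 to 2.54 among the lean mice and lay below all of them in each ob mouse (-5.02 ± 0.85, adjusted p = 1.1e-05). Mup4, Mup5 and Mup3, which may be the same signal read by other probes, fell as well (-3.95, -3.65 and -3.49), and Mup5 and Mup3 missed the threshold without lean mice 31, 32 and 33 (adjusted p = 0.081 and 0.17). Necab1 (-2.65 ± 0.54, adjusted p = 0.00017) read 2.87 in lean mouse 33 and missed it as well (-1.10, adjusted p = 0.15).

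The same lists were set beside those of B6 fat at 10 weeks, which shares no mouse and no pool with the BTBR comparison. In B6 8298 genes changed (41.7%), 4652 rising (23.4%) and 3646 falling (18.3%). Of the 4511 genes that rose in BTBR 63.8% also rose in B6, which is 61.9% of the B6 rises, and of the 4249 that fell 45.4% also fell, which is 52.9% of the B6 falls. The BTBR effect differed from the B6 effect in 2570 genes (12.9%), 1374 higher (6.91%) and 1196 lower (6.01%) in BTBR, in 1113 and 1403 without lean mouse 33, and in 632 and 1496 without lean mice 31, 32 and 33. In B6 lean mice the testis list was also above the pool on 2 arrays, at 2.26 in mouse 23 and 0.84 in mouse 20. Testis transcripts thus touch both sides. B6 lean mouse 24 also stood apart, at 1.11 in the epididymis list (others -4.17 to -3.84). It was highest in lipogenesis (-0.19, others -1.23 to -0.98) and cholesterol synthesis (-0.35, others -1.19 to -1.13). Mouse 22 was highest in cytokines and chemokines (0.97, others -0.86 to -0.32) and mesothelial genes (0.71, others 0.066 to 0.34). Both lay above the others in brown and beige fat genes. No B6 mouse was left out, so their weight here was not tested.

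Macrophage lists rose in B6 too, in 21 of 25 general macrophage genes (median 1.18) and 25 of 27 lipid-laden and lysosome genes (median 1.63), and by the strain difference 6 and 8 of these genes were higher in BTBR and 1 and 3 lower. Trem2 rose by more in B6 (3.30 ± 0.18) than in BTBR (1.85 ± 0.18), and Itgax by less (2.88 ± 0.17 against 3.94 ± 0.17); both differed by the strain test (adjusted p = 0.00014 and 0.0022). Oxidative phosphorylation fell in 29 of 47 genes in B6, and limma called a strain difference in 0 of the 47 (4 at an unadjusted p under 0.05), and branched-chain breakdown in 17 of 21, with 2 lower in BTBR. Fasn did not pass in B6 (0.10 ± 0.28) and differed from BTBR (adjusted p = 0.00054). Lipogenesis genes (6 of 26 lower in BTBR and 2 higher), cholesterol synthesis genes (6 of 18 lower and 0 higher) and endothelial genes (7 of 14 lower and 0 higher) went lower in BTBR by the strain difference, mast cell genes (5 of 9 higher and 0 lower) and mesothelial genes (6 of 12 higher and 0 lower) higher. The mesothelial genes fell in B6 (9 of 12, median -1.0), and Wt1, the mesothelial transcription factor, stood at -1.41 ± 0.15 in B6 and 0.37 ± 0.15 in BTBR. Col1a1 rose by 0.39 ± 0.13 in B6 and by 1.54 ± 0.13 in BTBR (adjusted p of the difference = 5.1e-05), while Mest rose by 3.04 ± 0.21 in B6 against 0.48 ± 0.21 in BTBR (adjusted p of the difference = 1.9e-07).

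By size, the strain difference was led by the Mup genes, which rose in B6 (Mup2 by 2.84 ± 0.85) where they fell in BTBR, and by Oxtr, the oxytocin receptor, which rose by 3.16 ± 0.30 in B6 and stood at -0.81 ± 0.30 (adjusted p = 0.03) in BTBR, a fall that was lost without lean mouse 26, 30 or 32 or ob mouse 10 (adjusted p = 0.059, 0.074, 0.055 and 0.093). In the other direction Ptgs2 fell in B6 (-3.03 ± 0.91), as did Ucp1 (-2.06 ± 0.71) and Lypd1 (-1.24 ± 0.15). Lypd1 rose in BTBR (1.85 ± 0.15), with values of -0.48, -0.32, -0.78, -1.16 and -1.32 in the lean mice and 0.83, 0.85, 1.5, 0.97 and 1.04 in the ob mice and no overlap. The eosinophil ribonuclease gene Rnase2a and the sulfotransferase gene Sult2a1 rose in BTBR (3.53 ± 0.37 and 3.08 ± 0.51) and were not called in B6 (-0.48 ± 0.37 and 0.45 ± 0.51).

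**Figure D3:**
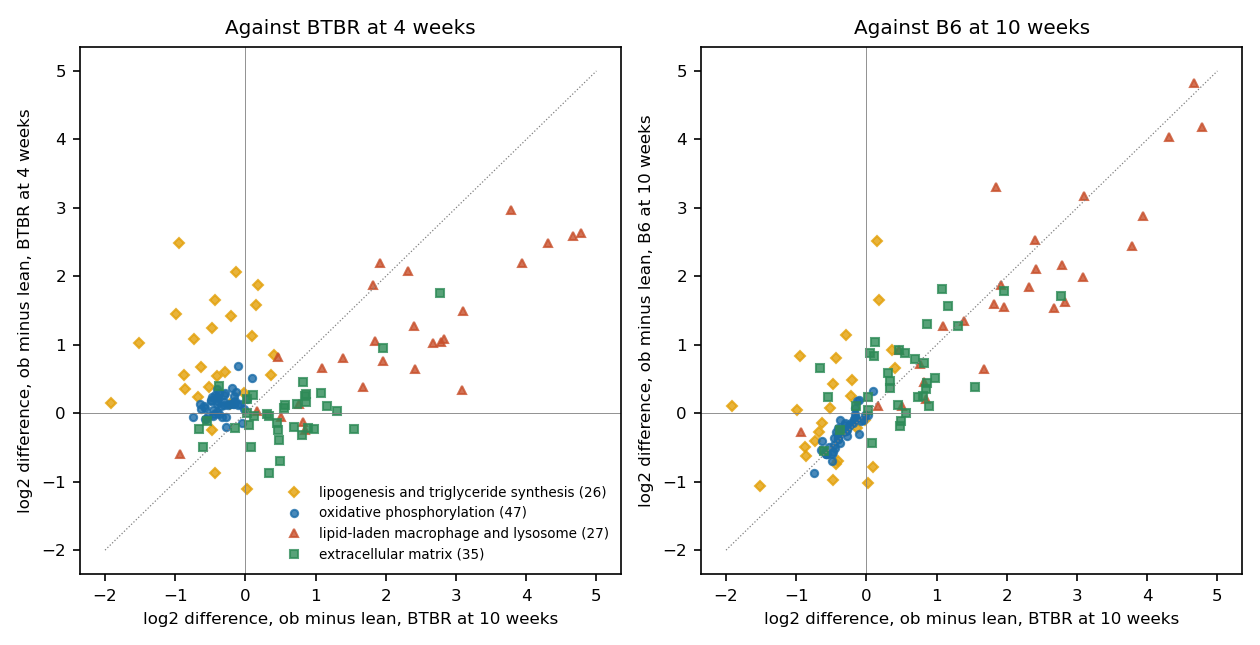
Log2 difference between ob and lean in BTBR mice at 10 weeks (horizontal axis) against that in BTBR mice at 4 weeks (left) and B6 mice at 10 weeks (right), 1 point per measured gene of 4 lists; the dotted line marks equal differences. Lipogenesis genes (26) lie mostly above the line against 4 weeks, and lipid-laden macrophage and lysosome genes (27) mostly below it there and nearer to it against B6.

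At 4 weeks the same strain gave 6341 changed genes (31.9%), 3679 that rose (18.5%) and 2662 that fell (13.4%). The 2 ages share a pool but no mouse. Of the 10-week rises 39.7% had risen at 4 weeks, which is 48.7% of the 4-week rises, and of the 10-week falls 32.7% had fallen, which is 52.3% of the 4-week falls. The obesity effect differed between the ages in 4130 genes (20.8%), 2275 higher (11.4%) and 1855 lower (9.32%) at 10 weeks, in 2066 and 2157 without lean mouse 33, and in 1485 and 2478 without lean mice 31, 32 and 33. Testis transcripts were above the pool in 4-week lean mouse 37 as well (1.51).

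Fat synthesis stood out among the lists by its turn. At 4 weeks 19 of 26 lipogenesis genes rose and 2 fell (median 0.64), at 10 weeks 1 rose and 11 fell, and in 20 of 26 the effect was lower at 10 weeks, in 1 higher. Since both ages were read against the same pool, levels can be followed. Fasn stood at 0.53 in lean and 0.67 in ob mice at 4 weeks and at -0.56 and -2.48 at 10 weeks. Scd1 stood at -0.82 and 1.24 at 4 weeks and at -0.72 and -0.86 at 10 weeks, so that its effect went from 2.07 ± 0.26 to -0.14 ± 0.26. Elovl6, a fatty acid elongase, went from 2.49 ± 0.44 to -0.95 ± 0.44 (adjusted p of the difference = 0.00011). Oxidative phosphorylation turned too: 15 of 47 genes rose and 1 fell at 4 weeks, and in 41 of 47 the effect was lower at 10 weeks, among them all 4 genes of complex II and all 6 of complex IV. Of 21 branched-chain genes 5 rose and 8 fell at 4 weeks (median -0.043), and 14 were lower at 10 weeks. Retn was not called at 4 weeks (0.13 ± 0.12) and differed between the ages (adjusted p = 1.7e-11), while Cfd had fallen already (-3.16 ± 0.24).

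Macrophage genes were up at 4 weeks and further up at 10 weeks. Of 25 general macrophage genes 15 rose at 4 weeks (median 0.61) and 18 had a larger effect at 10 weeks, and of 27 lipid-laden and lysosome genes 20 rose and 2 fell (median 1.03) and 19 had a higher effect later, 1 a lower. Gpnmb went from 2.64 ± 0.22 to 4.78 ± 0.22, Itgax from 2.19 ± 0.17 to 3.94 ± 0.17 and Adgre1 from 0.86 ± 0.19 to 2.32 ± 0.19. Spp1 had risen by 2.97 ± 0.59 and Il1rn by 4.09 ± 0.35 at 4 weeks, and their later effects were not shown to differ (adjusted p = 0.56 and 0.27). In the cytokine and chemokine list 12 of 32 rose at 4 weeks and 2 fell, and limma called an age difference in 0 of the 32 (3 at an unadjusted p under 0.05). Matrix and division genes had larger effects at 10 weeks in part of their members: 4 of 35 matrix genes rose and 4 fell at 4 weeks and 19 had a higher effect at 10 weeks, and 3 of 27 replication genes rose and 1 fell at 4 weeks and 14 had a higher effect later. Of 28 mitosis genes 0 rose at 4 weeks in limma (0 at an unadjusted p under 0.05), and 5 had a higher effect at 10 weeks. The matrix list mean lay between 0.0044 and 0.23 in ob mice at 4 weeks and between -0.082 and 0.11 at 10 weeks, and between -0.037 and 0.28 in lean mice at 4 weeks and between -0.88 and -0.34 at 10 weeks. The ob ranges thus overlapped between the ages, while the lean values were lower at 10 weeks. Col1a1 went from -0.23 ± 0.13 to 1.54 ± 0.13 and Mki67 from 0.31 ± 0.35 to 2.33 ± 0.35. Endothelial genes, of which 1 of 14 rose and 1 fell at 4 weeks, had a lower effect at 10 weeks in 7.

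By size, the genes whose effect was highest at 10 weeks against 4 weeks were Cyp4a10 (from 0.06 ± 0.72 to 4.01 ± 0.72), the cytochromes Cyp2a5 (to 3.70 ± 0.73) and Cyp2a4 (to 3.22 ± 0.66), near copies that may share probe signal, Serpinb9b (from 1.34 ± 0.44) and Wif1 (from 1.69 ± 0.55). The most lowered were Elovl6, Rprml (from -0.85 ± 0.55), C6 of the terminal complement complex, Elovl3, which lengthens fatty acids in fat (from 2.71 ± 0.48 to -0.47 ± 0.48), and the fructose transporter Slc2a5. C6 rose at 4 weeks (0.81 ± 0.25), fell at 10 weeks (-2.43 ± 0.25), and read 1.28, 0.74, 0.79, 0.89 and 0.43 in the lean mice and -1.63, -1.15, -1.25, -1.68 and -2.28 in the ob mice at 10 weeks, with no overlap. Slc2a5 read -3.40, -2.89, -0.14, 0.25 and 2.30 in the lean mice at 10 weeks, rising in the same order of mice as the testis list. Its age difference of -3.14 was lost without lean mouse 32 or 33 or ob mouse 4, with a highest adjusted p of 0.066 when 1 mouse was left out. Without lean mice 31, 32 and 33 that difference was -0.77 (adjusted p = 0.59 in limma).

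**Figure D4:**
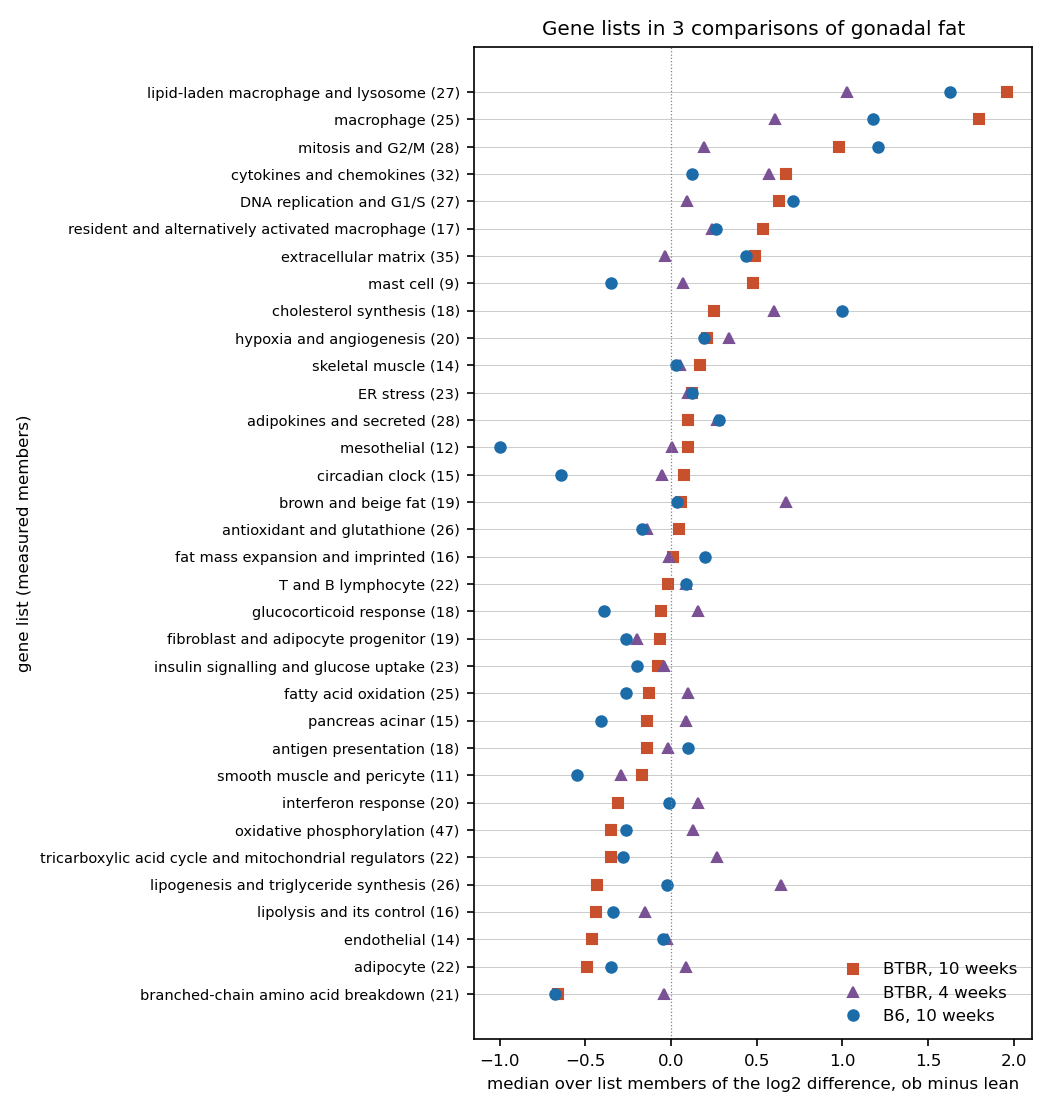
Median log2 difference between ob and lean over the members of each gene list with 9 or more measured members (vertical axis, number of measured members in brackets; testis and epididymis are left out), for BTBR mice at 10 weeks (squares) and 4 weeks (triangles) and B6 mice at 10 weeks (circles). The lipid-laden macrophage list has the highest 10-week BTBR median (1.96) and the branched-chain list the lowest (-0.66), and the lipogenesis list is at 0.64 at 4 weeks and -0.43 at 10 weeks.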

How the data were processed

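RNA of gonadal fat from single male mice was hybridised with a pool of 20 mice of the same strain and tissue on 2-colour arrays (Cy3 and Cy5), after Trizol and RNeasy extraction and 1 round of amplification, per the labels' protocols. The deposited values are log10 ratios, 1 column per array; the authors' scanner settings, background correction, normalization and genome build are not stated in the labels used, and the scale, centring and direction of the ratio were read from the values, the direction remaining unsettled. Array medians in fat lay between -0.034 and 0.033 (log10), so the columns are centred near 0, and values stop at 2 and -2 (73 values on the 10 arrays). Signal over background of single spots is unknown.

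Log10 ratios were turned into log2. Of 39556 probes 23283 (58.9%) had a gene symbol in the platform annotation, updated through RefSeq, and 16273 were not analysed; probes of a gene were averaged, which gave 19896 genes, 2869 of them with 2 or more probes. Of 118 such genes in the lists or named, 32 had probes of opposite sign. limma 3.58.1 (R 4.3.3) fitted 8 group means to the 40 fat arrays with empirical Bayes, two-sided tests and Benjamini-Hochberg adjustment over all genes. In a simulation of 19896 genes, 200 of them changed, the fit of the 10-week BTBR comparison found 86% of 2-fold changes. It found 74% of 1.5-fold changes, and 5.33% of its calls were false. The measured arrays differ from that setting, since 8760 genes were called in them. Of their 991 falls of 2-fold or more, 388 were still called without lean mouse 33. The simulated share of false calls therefore gives no error rate for the calls reported here.

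The 37 gene lists, and the arrays compared, were chosen with earlier results of these data known. Genes named were 18 fixed ones, the 12 largest rises and falls without overlap, up to 4 of the most changed members of each list, and the 5 largest strain and age differences in each direction; 61 further list members were named for their role after their values were seen. Alternatives were the arrays sharing the spread, array scaling, probe choice, values at the limits, robust variance, array weights and leaving out each mouse; leaving out lean mice 31, 32 and 33 and a testis covariate were added after seeing the data. Promoter sequences are those of RefSeq on GRCm38.p6.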

Additional observations from a re-analysis of the deposited data

Results flagged for a closer look

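Dixon's test was run in groups of 5 mice. It set a mouse apart where its gap to the nearest of the others exceeded 0.71 of the group's range. Chance gives this in about 5% of groups. Of 438 genes or list means by group 23 held such a mouse, a share near that of chance. Any 1 of the 23 may thus be a chance gap. Lean mouse 33 was apart in 5 of them: it was lowest in Gpnmb (-4.16, others -3.61 to -3.41), Lama4 (-0.43, others -0.004 to 0.15), the oxidative phosphorylation list (-0.26) and the antioxidant and glutathione list (-0.11, others 0.035 to 0.079), and highest in the DNA replication and G1/S list (-0.14, others -0.48 to -0.40). Lean mouse 26 was highest in the T and B lymphocyte list (0.86), the antigen presentation list (1.24) and Psmb9 (1.97), and lowest in Foxo1 (0.089, others 0.46 to 0.51). Lean mouse 31 was highest in Gsn (2.61), Slc2a1 (0.37, others -0.24 to -0.14) and the acinar pancreas list (0.64, others -0.17 to 0.032). Lean mouse 32 was highest in the epididymis list (1.77) and its member Gpx5 (3.56), and lean mouse 30 was highest in Fgf1 (-0.011, others -0.79 to -0.66).

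Among the ob mice, mouse 10 was lowest in the endothelial list (-0.65) and highest in Cdt1 (1.16, others 0.88 to 0.95). Mouse 8 was lowest in Cyc1 (-1.04) and in Otop1 (-0.94, others -0.12 to 0.19). Mouse 5 was highest in Acadm (0.27), Dbt (-0.18) and Gpam (-0.83, others -1.22 to -1.12), and mouse 9 was highest in Il1b (1.69).

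The obesity effect in BTBR minus that in B6, tested in limma as an interaction, was 5.37 ± 1.29 for Ptgs2 (adjusted p = 0.0045), 4.02 ± 0.52 for Rnase2a (1.9e-06), 3.86 ± 1.01 for Ucp1 (0.0088), 3.10 ± 0.22 for Lypd1 (5.2e-12) and 2.63 ± 0.72 for Sult2a1 (0.013). It was -7.86 ± 1.20 for Mup2 (adjusted p = 2.7e-05 in limma), -6.30 ± 1.05 for Mup4 (8.5e-05), -5.59 ± 1.19 for Mup3 (0.0014), -5.56 ± 1.05 for Mup5 (0.00041) and -3.97 ± 0.43 for Oxtr (6.7e-08). The effect at 10 weeks minus that at 4 weeks, tested the same way, was 3.95 ± 1.02 for Cyp4a10 (adjusted p = 0.0045 in limma), 3.53 ± 1.03 for Cyp2a5 (0.012), 3.26 ± 0.93 for Cyp2a4 (0.01), 3.10 ± 0.62 for Serpinb9b (0.00038) and 3.08 ± 0.77 for Wif1 (0.0035). It was -3.44 ± 0.62 for Elovl6 (adjusted p = 0.00011 in limma), -3.27 ± 0.77 for Rprml (0.0021), -3.23 ± 0.36 for C6 (5.8e-08), -3.18 ± 0.68 for Elovl3 (0.00082) and -3.14 ± 1.03 for Slc2a5 (0.026). Leaving out any 1 of the 10 BTBR mice of 10 weeks ended none of these 20 calls except that of Slc2a5. No B6 mouse and no 4-week mouse was left out in turn, so how the calls depend on those mice was not tested.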

How the results depend on the processing

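No paired analysis was possible because the ob and lean mice share no mouse number. Leaving out 1 of the 10-week BTBR mice at a time gave 7235 to 9513 changed genes, 3838 to 5054 higher and 3397 to 4459 lower. It gave 2099 to 3041 strain differences and 3717 to 4436 age differences. Mitosis genes that rose ran from 13 to 25 and lipogenesis genes that fell from 9 to 12. Cytokine and chemokine genes that rose ran from 11 to 14. Without lean mice 31, 32 and 33, 5782 genes changed, 2669 of them higher; strain differences higher in BTBR fell to 632 and age differences higher at 10 weeks to 1485; and 7 lipogenesis genes fell while 26 mitosis, 15 matrix and 7 cytokine and chemokine genes rose. With the testis list as a covariate 26 mitosis genes rose. The fit on the 10 arrays alone called 5727 genes, 2297 of them lower. Array weights, which gave lean mouse 33 a weight of 0.128, called 5145 strain differences (2729 higher and 2416 lower) and 6507 age differences (3145 lower). Quantile normalization left 5 lipogenesis genes lower. The cause of these shifts was not tested. Medians changed sign for the brown and beige list with array weights (-0.14), the testis covariate (-0.066) and without lean mouse 26, 31 or 33 or ob mouse 5 or 10 (-0.11 to -0.022), and, without the 3 lean mice, for the testis (0.28), erythrocyte (-0.41), circadian (-0.01), mesothelial (-0.045), glucocorticoid (0.0061) and antioxidant (-0.0012) lists. The differences of Slc2a5 (0.38), Hils1 (0.22) and Tssk2 (0.11) did so too without those mice. The mesothelial median was -0.05 with the testis covariate, and small medians of the lymphocyte, antigen presentation, fat mass, erythrocyte and antioxidant lists turned under further settings. Of 160 genes named by rule, 160 kept direction and call with robust variance, 160 without values at the limits, 157 with median centring and 133 without the 3 lean mice. With 5 mice a group and unknown spot signal, small differences and dim probes are the least certain.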
